A study of Mus musculus with 28 samples.

Results

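The Notch receptors Notch1, Notch2, Notch3 and Notch4 and the ligands Jag1, Jag2, Dll1 and Dll4 were followed by their symbols through all 18 RNA libraries of a study of SIRT1 in mouse satellite cells, which repair skeletal muscle as its stem cells. These are 8 of the 22552 genes listed in each table, chosen by family, with earlier results of these data known. SIRT1 is an NAD-dependent protein deacetylase. The libraries are polyA RNA-seq of satellite cells on a C57Bl/6 background, sorted by FACS from WT mice or from SIRT1mKO mice, here KO, which carry a Pax7cre/+ knock-in and a floxed allele of exon 4 of Sirt1. Pax7 drives the Cre in satellite cells, and the labels do not say that the WT mice carried Cre. FI cells were freshly isolated and quiescent. Cul cells proliferated in Ham's F-10 medium with bFGF at 12.5 ng/ml and 20% fetal bovine serum. Diff cells were grown with the same levels of bFGF and fetal bovine serum and then spent 24 hours in Ham's F-10 medium with 2% horse serum. There were 5 WT_FI and 3 KO_FI libraries, 4 WT_Cul and 2 KO_Cul libraries, and 2 each of WT_Diff and KO_Diff. Age and sex of the animals are not given, and neither is whether each library had its own animal or culture. The p-values therefore measure only the spread between these libraries, which may be technical. The ChIP samples of the series were not analysed here.

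Notch receptors are single-pass membrane proteins that bind Jagged and Delta-like ligands on a neighbouring cell. Binding lets an ADAM protease and then gamma-secretase cut the receptor, and the freed intracellular domain joins Rbpj and Mastermind-like proteins in the nucleus to raise transcription of Hes and Hey genes. In skeletal muscle, Notch signalling is known for keeping satellite cells quiescent and for holding back differentiation. Notch3 and Notch4 are also well known in the vessel wall, Notch3 in pericytes and smooth muscle and Notch4 with Dll4 in endothelium.

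The sequences in front of 4 members are shown because the results turn on them: Notch3 and Dll4 are the receptor and the ligand that passed the test between WT_Cul and WT_FI, and Jag1 and Jag2 are the Jagged ligands whose estimates had opposite signs in that comparison. Each run holds the 250 bases before the RefSeq start of the gene in GRCm38.p6, read 5′ to 3′ on the gene's strand. The deposited tables give no positions, so the runs are matched by symbol, and 8 of 8 members had an entry. Capitals mark the GC box GGGCGG (or CCGCCC on the other strand) and, in Jag1, the E-box CAGCTG, which reads the same on both strands.
Notch3, chr17:32166891-32167140, minus strand: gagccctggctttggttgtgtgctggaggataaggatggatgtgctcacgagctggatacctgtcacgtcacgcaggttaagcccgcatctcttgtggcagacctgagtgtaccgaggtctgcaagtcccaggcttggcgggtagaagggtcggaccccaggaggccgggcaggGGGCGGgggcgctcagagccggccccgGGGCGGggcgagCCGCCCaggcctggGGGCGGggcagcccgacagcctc
Dll4, chr2:119325534-119325783, plus strand: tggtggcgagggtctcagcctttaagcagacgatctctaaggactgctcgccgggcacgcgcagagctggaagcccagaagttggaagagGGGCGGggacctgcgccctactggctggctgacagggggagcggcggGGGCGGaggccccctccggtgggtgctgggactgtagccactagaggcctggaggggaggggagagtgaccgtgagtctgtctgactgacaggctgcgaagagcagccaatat
Jag1, chr2:137116521-137116770, minus strand: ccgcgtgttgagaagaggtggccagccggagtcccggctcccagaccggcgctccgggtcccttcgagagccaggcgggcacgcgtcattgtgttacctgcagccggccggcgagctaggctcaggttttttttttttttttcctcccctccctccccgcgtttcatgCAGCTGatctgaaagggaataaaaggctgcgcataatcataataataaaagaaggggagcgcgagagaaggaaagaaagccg
Jag2, chr12:112929496-112929745, minus strand: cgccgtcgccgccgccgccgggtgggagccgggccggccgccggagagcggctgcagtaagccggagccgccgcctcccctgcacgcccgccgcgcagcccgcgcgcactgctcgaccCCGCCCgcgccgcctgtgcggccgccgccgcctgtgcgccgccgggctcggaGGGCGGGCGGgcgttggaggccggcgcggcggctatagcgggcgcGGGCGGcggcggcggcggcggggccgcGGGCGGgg
The GC box occurred 4 times in Notch3, 2 times in Dll4 and 5 times in Jag2, where one pair of matches overlaps, and 32.7% of all 32851 RefSeq windows of this length hold it. Among the members not shown, none of which passed that test, the GC box occurred 5 times each in Notch1 and Notch2. It was not found in Notch4 or Dll1. The E-box occurs in 13% of the windows, and a window of Dll1 held it as well as that of Jag1. The Rbpj motif GTGGGAA, held by 5.42% of the windows, and TATAAA, held by 12.4%, were in no member's window. A match of letters is a description and not a binding site, and no match says only that these letters are not in this window. GC content was 68.8% in Notch3, 65.6% in Dll4, 57.2% in Jag1 and 87.2% in Jag2.

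The libraries lie in 4 tables that the authors made separately, one for KO against WT in each state (called the FI, Cul and Diff tables) and one for WT_Cul against WT_FI (the table of WT states, with 2 libraries a group). Depth per library ran from 28010691 to 65324684 fragments for the FI table, 75674366 to 82590642 for Cul, 71858446 to 82825550 for Diff and 24254119 to 31643216 for the WT states. Libraries are named by group and by their index in the table (0, 1 or 2). A level of one gene is given in CPM, fragment counts relative to the TMM-scaled library size, and is tested between libraries of one table only. Where CPM of different tables stand side by side, the tables were scaled separately and no test was made. Levels of different genes are compared in FPKM, which is per transcript length. Log2 fold changes, standard errors (SE) and p-values are from edgeR's quasi-likelihood test, with Benjamini-Hochberg adjustment over all genes of the table that passed a filter on low counts, and a gene was called at an adjusted p under 0.05. Sirt1 was present in every library, with means of 59.8 ± 18.8 CPM in WT_FI against 48.4 ± 13.4 CPM in KO_FI (SD, n = 3 each), 64.5 ± 3.28 and 40.4 ± 9.24 CPM in WT_Cul and KO_Cul (n = 2 each), and 40.1 and 35.1 CPM in WT_Diff and KO_Diff. None of its differences passed (edgeR adjusted p = 1.00 each), and a total over the gene cannot check the loss of exon 4.

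Some libraries stand apart. Both index 0 libraries of the FI table held a larger share of fragment values above 0 that were not whole numbers at a tolerance of 0.01, 8.18% and 8.11%, than the other 4, at 2.43% to 2.82%. They stand apart within that table only. Every library of the table of WT states held a similar share, 7.23% to 7.80%, and those of Cul and Diff held 1.42% to 1.70%. The 2 WT_FI libraries of the table of WT states held Pax7, the defining satellite cell gene, at 138 and 117 CPM, beside 832 to 1059 CPM in the separately scaled FI table. Markers of other cells were present beside it. Summed over 9 markers, pericyte and smooth muscle RNA was at 23395 and 31880 CPM in these 2 libraries and at 3777 to 8863 CPM in the 6 libraries of the FI table, and 12 fibroblast markers summed to 29068 and 20010 CPM against 4731 to 6945 CPM. The 2 WT_Cul libraries of that table differed from each other, with 15 muscle differentiation genes at 6001 and 611 CPM and Pax7 at 19.7 and 70.6 CPM. In bulk RNA, fewer cells of a type and less RNA per cell cannot be told apart.

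Notch3 was the leading receptor of freshly isolated cells and Jag1 their leading ligand. In WT_FI of the FI table, Notch3 was at 290 ± 53.2 FPKM (SD, n = 3), ahead of Notch2 at 38.3 and Notch1 at 36.8 FPKM, which overlapped, and of Notch4 at 2.05 FPKM. As a share of the summed receptor FPKM of a library, Notch3 ranged from 78.1% to 83.2% with a median of 80.1% over the 5 WT_FI libraries and from 77.6% to 81.8% over the 3 KO_FI libraries. The WT_FI and KO_FI shares overlapped. The Jag1 share of the summed ligand FPKM was 46.0% to 94.0% in WT_FI and 49.1% to 53.2% in KO_FI, the highest WT_FI values lying in the table of WT states (81.4% and 94.0%). Dll1, a Delta-like ligand known from activated myogenic cells, came next in WT_FI of the FI table, at 20.0 FPKM, followed by Jag2 at 4.42 and Dll4 at 3.08 FPKM, which overlapped.

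In culture, Notch2 and no longer Notch3 had the largest receptor share. The Notch3 share was 3.15% and 3.38% in WT_Cul of the Cul table and 25.0% and 16.2% in WT_Cul of the table of WT states, and 9.18% and 4.64% in KO_Cul. The Notch2 share was 50.3% to 79.2% in the 4 WT_Cul libraries and 67.9% and 73.7% in KO_Cul. Summed receptor FPKM was 16.5 to 22.4 in the Cul table and 293 to 490 in the FI table, levels that the authors scaled separately and that are only set side by side. The leading ligand in culture depended on the table: Jag2 held 50.6% to 63.6% of ligand FPKM in the 4 libraries of the Cul table, but 8.78% and 12.5% in WT_Cul of the table of WT states, where Dll1 led one library (65.2%, index 0) and Jag1 the other (71.7%, index 1).

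**Figure D1:**
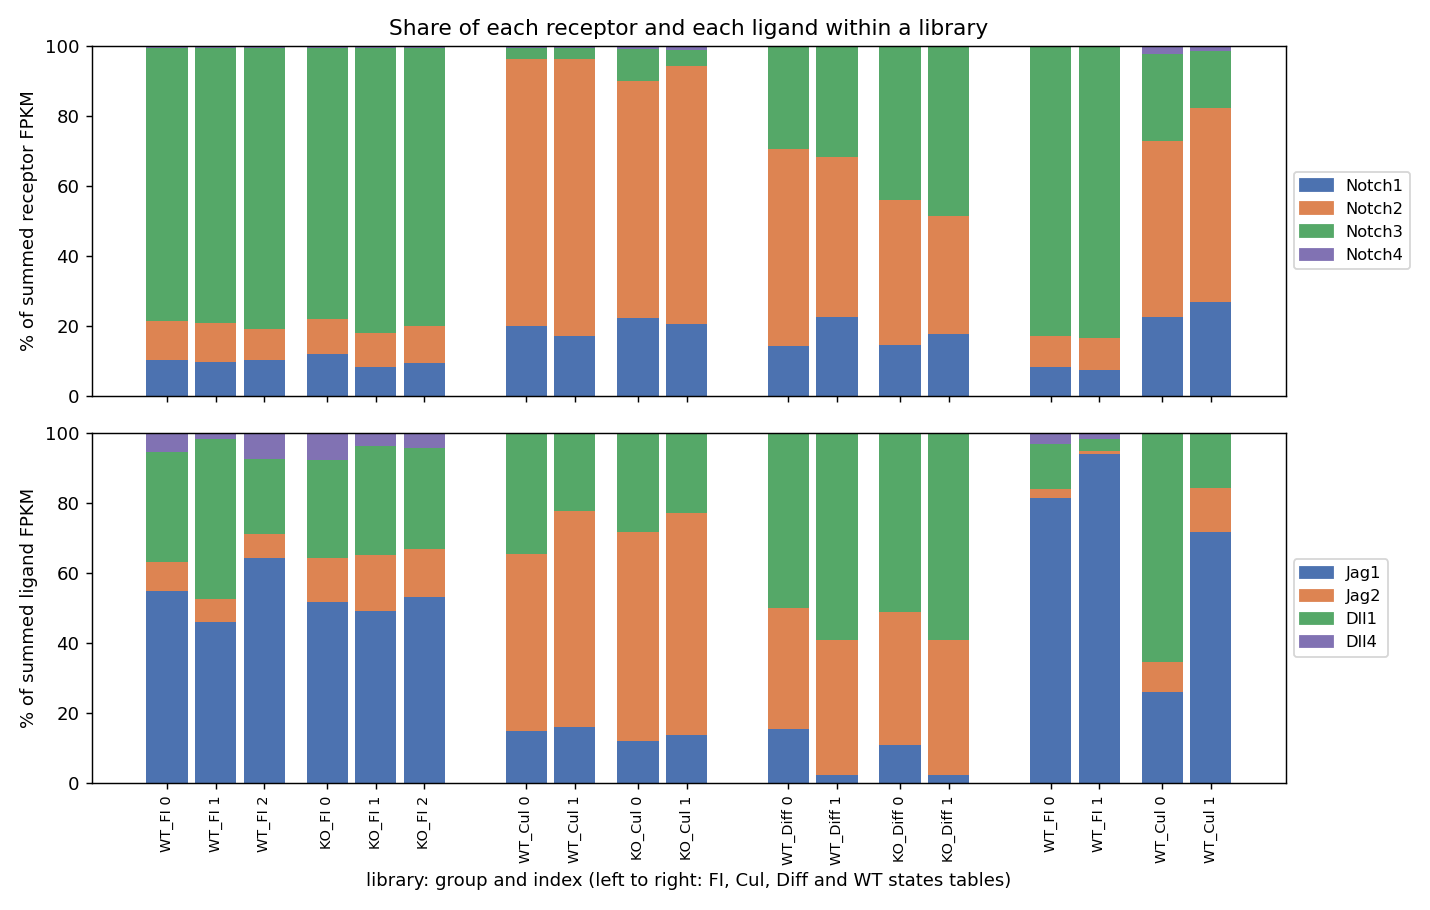
Share of each receptor in the summed receptor FPKM (top) and of each ligand in the summed ligand FPKM (bottom), in percent, with 1 stacked bar per library in the order of the 4 tables. Notch3 holds 77.6% to 83.2% of receptor FPKM in every FI library and 3.15% to 25.0% in every Cul library, and Dll1 with Jag2 hold most of the ligand FPKM in every Diff library.

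After 24 hours in differentiation medium, Notch3 held an intermediate share, 29.0% and 31.3% in WT_Diff and 43.8% and 48.3% in KO_Diff. Notch2 held 56.5% and 45.7% in WT_Diff and 41.4% and 33.7% in KO_Diff (indices 0 and 1). By mean FPKM, Notch2 (9.48) and Notch3 (5.39) overlapped in WT_Diff, whereas in KO_Diff Notch3 (13.3) lay above Notch2 (10.9) without overlap. The order of the Notch3 share was thus FI highest, then KO_Diff, then WT_Diff, then Cul, with WT_FI overlapping KO_FI and WT_Cul overlapping KO_Cul. The Dll1 share was 49.9% to 59.2% in WT_Diff and 51.0% to 59.0% in KO_Diff, and the Jag2 share was 34.7% to 38.6% over all 4 libraries. Jag1 held 15.3% and 10.9% in the index 0 libraries and 2.21% and 2.36% in the index 1 libraries of WT_Diff and KO_Diff. The Dll4 share was at most 0.123% in every Cul and Diff library and 1.73% to 7.52% in the FI libraries.

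WT_Cul was compared with WT_FI to ask how these genes differ between proliferating and quiescent cells. Notch3 fell 36.3-fold and Dll4, a ligand of vessel sprouting, fell to 3 fragments a library, and these were the 2 of 8 members that passed the test. Background was high: 28.6% of the 14680 genes tested were called, 16% lower and 12.6% higher in WT_Cul. The other 3 receptors and Jag1 had lower means in WT_Cul, and Jag2 and Dll1 had higher ones, without passing. The groups did not overlap for 7 of 8 members, against 70.9% of all genes tested, so that non-overlap says little here. The median log2 fold change was −1.06 over the members and 0.0616 over all genes tested. Without WT_Cul index 1, 7 members and 8050 genes were called by edgeR, all but Jag2 (adjusted p = 0.0533). Without WT_FI index 0 or index 1, 2108 and 2063 genes were called, and 2 members in each case.

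**Figure D2:**
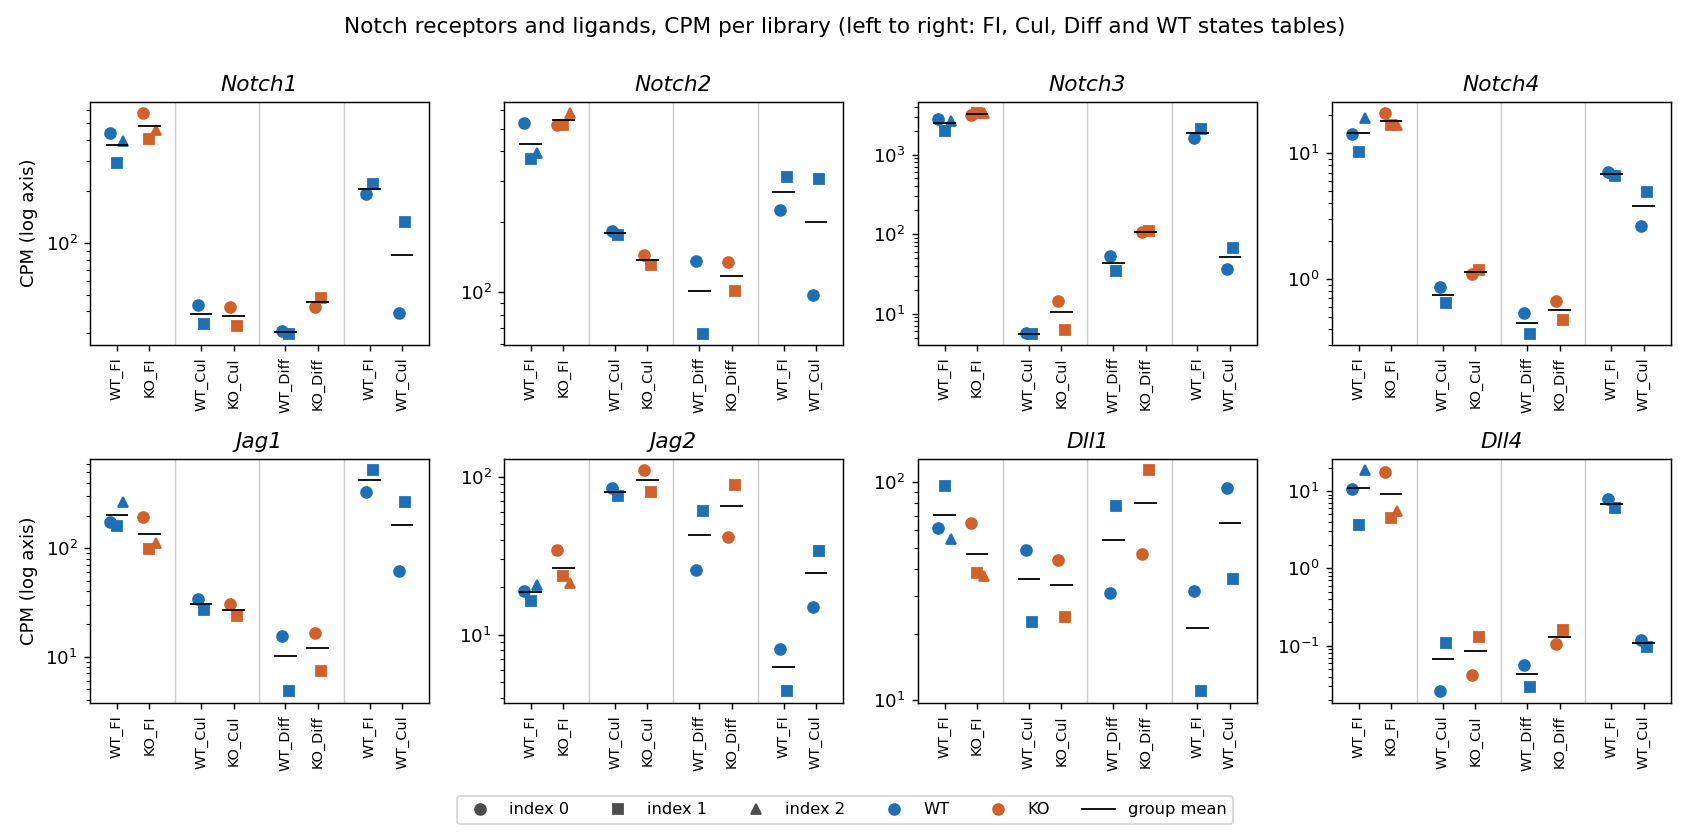
CPM of each of the 8 genes (log axis) in every library, with 1 panel per gene, the groups of the FI, Cul, Diff and WT states tables from left to right, marker shapes for the table index and a black line for the group mean. Levels are comparable within a table only. Notch3 falls from 1611 and 2111 CPM to 36.2 and 66.4 CPM in the table of WT states and is at 107 and 108 CPM in KO_Diff against 52.7 and 34.1 CPM in WT_Diff.

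Notch3 was at 1611 and 2111 CPM in WT_FI against 36.2 and 66.4 CPM in WT_Cul (1861 ± 354 and 51.3 ± 21.4, SD, n = 2 each). Both WT_Cul libraries lay far below both WT_FI libraries. The log2 fold change was −5.18 (SE 0.56, 95% interval −6.60 to −3.77, edgeR adjusted p = 0.0103), and it was −5.47 and −4.99 between libraries of the same index. Among the other receptors, Notch1 was at 192 and 221 CPM in WT_FI against 39.1 and 132 CPM in WT_Cul (−1.28, SE 0.63, edgeR adjusted p = 0.180). Notch2 was at 225 and 311 CPM in WT_FI against 97.0 and 303 CPM in WT_Cul, the only member whose groups overlapped (−0.42, SE 0.62, edgeR adjusted p = 0.634). Notch4 was at 7.09 and 6.59 CPM in WT_FI against 2.64 and 4.94 CPM in WT_Cul (−0.85, SE 0.53, edgeR adjusted p = 0.272). For Notch1, Notch2 and Jag1 the index 1 library of WT_Cul was 3.13 to 4.38 times as high as index 0.

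Dll4 was at 7.77 and 5.98 CPM in WT_FI against 0.120 and 0.0949 CPM in WT_Cul, 363 fragments in all against 6, or 3 in each WT_Cul library. The ratio of the scaled counts was 64.4 (95% counting interval 29.3 to 177, counting error only), and the fitted log2 fold change was −5.95 (SE 0.67, edgeR adjusted p = 0.0104). Jag1, the most abundant ligand of freshly isolated cells, was at 330 and 523 CPM in WT_FI against 61.2 and 268 CPM in WT_Cul, lower in both but widely spread (−1.37, SE 0.76, edgeR adjusted p = 0.222). Jag2 and Dll1 went the other way. Jag2 was at 8.13 and 4.38 CPM in WT_FI against 15.1 and 34.0 CPM in WT_Cul (1.97, SE 0.60, unadjusted p = 0.0208 and adjusted p = 0.0628 from edgeR). It passed with DESeq2 (1.95, adjusted p = 0.00869) and without WT_Cul index 0 (2.41, edgeR adjusted p = 0.0036). Dll1 was at 31.6 and 10.9 CPM in WT_FI against 93.8 and 35.9 CPM in WT_Cul (1.61, SE 0.72, edgeR adjusted p = 0.149). Dll1 was highest in the WT_Cul library with the higher muscle differentiation genes (index 0), and Jag2 in the other.

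Markers of vessel cells and of fibroblasts moved with both called members. Of the 9 pericyte and smooth muscle markers, 9 were below 0 and 7 were called lower in WT_Cul, their sum going from 23395 and 31880 CPM to 2204 and 2351 CPM. Rgs5, a defining pericyte gene, went from 1057 and 1568 CPM to 1.88 and 15.2 CPM. Of the 19 endothelial markers, 19 were below 0 and 13 were called lower, with sums of 901 and 941 CPM in WT_FI and 127 and 206 CPM in WT_Cul. Cdh5, the endothelial cadherin, was at 88.2 and 107 CPM in WT_FI against 8.68 and 25.7 CPM in WT_Cul, and Pecam1 at 86.6 and 89.7 CPM against 7.56 and 10.9 CPM. Of the 12 fibroblast markers, 12 were below 0 and 9 were called lower, with sums of 29068 and 20010 CPM in WT_FI and 1002 and 1710 CPM in WT_Cul. The median log2 fold change was −4.70 over the fibroblast, −3.28 over the pericyte and smooth muscle and −2.99 over the endothelial markers. Other cell lists lay lower too. Of macrophage and leukocyte markers 8 of 9 tested were below 0 (median −3.32), of lymphocyte markers 4 of 4 (−6.11) and of Schwann cell markers 5 of 6 (−0.98). The part of these cells in the fall of Notch3 and Dll4 was not tested. Pax7 itself was at 138 and 117 CPM in WT_FI against 19.7 and 70.6 CPM in WT_Cul (−1.49, edgeR adjusted p = 0.140). The 12 satellite cell genes, Pax7 among them, did not share this direction. Of these, 8 were below 0 and 4 above 0, with 2 called lower and 1 higher (median −0.15). Their sums were 2417 and 2111 CPM in WT_FI and 4590 and 2271 CPM in WT_Cul. Much of the WT_Cul sum was Myod1, at 45.0 and 13.9 CPM in WT_FI against 2404 and 685 CPM in WT_Cul.

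**Figure D3:**
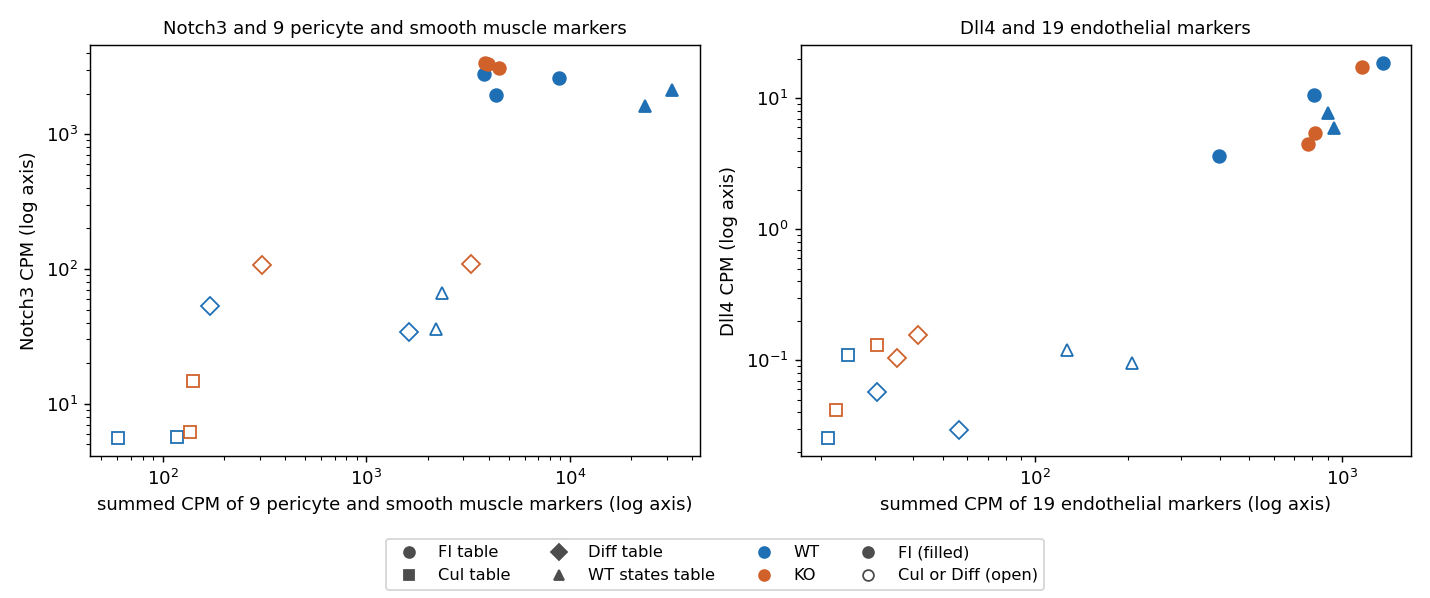
Notch3 CPM against the summed CPM of 9 pericyte and smooth muscle markers, and Dll4 CPM against that of 19 endothelial markers, with 1 point per library on log axes, shown as a description. FI libraries lie at the upper right of both panels. In the Diff table, Notch3 is at 107 and 108 CPM in KO_Diff while the marker sum is 308 and 3273 CPM.

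KO_FI was compared with WT_FI to ask whether these genes differ with the KO genotype in quiescent cells. SIRT1 activity itself was not measured here. None of the 8 members passed the test, and 0% of all 15146 genes tested by edgeR did, while 621 genes, none of them a member, had an unadjusted p under 0.05. DESeq2 called 114 genes and limma on log2 FPKM none, and neither called a member. All 4 receptors had estimates above 0, as did Jag2, and Jag1, Dll1 and Dll4 had estimates below 0, of which that of Dll4 turned to 0.35 without WT_FI index 2. The groups did not overlap for 2 of 8 members, Notch3 and Jag2, against 9.22% of all genes tested. The median log2 fold change was 0.33 over the members and −0.0268 over all genes.

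Notch3 was at 2784, 1966 and 2612 CPM in WT_FI against 3103, 3356 and 3321 CPM in KO_FI (indices 0, 1 and 2; 2454 ± 431 and 3260 ± 137, SD, n = 3 each). Every KO_FI library lay above every WT_FI library, and the log2 difference was 0.41 (SE 0.18, 95% interval −0.018 to 0.84, unadjusted p = 0.0577 and adjusted p = 1.00 from edgeR). Between libraries of the same index it was 0.16, 0.77 and 0.35. Summed pericyte and smooth muscle markers were at 3777, 4340 and 8863 CPM in WT_FI against 4478, 3852 and 3979 CPM in KO_FI, with 9 of 9 estimates below 0 and none called, and fibroblast markers had 10 of 12 above 0 (median 0.15) and none called. Their part in the values of Notch3 was not tested. Notch1 was at 437, 291 and 394 CPM in WT_FI against 576, 405 and 458 CPM in KO_FI, higher in KO_FI within each index but overlapping between groups (0.36, SE 0.21, edgeR adjusted p = 1.00). Notch2 was at 530, 371 and 395 CPM in WT_FI against 521, 520 and 587 CPM in KO_FI (0.33, SE 0.18, edgeR adjusted p = 1.00). Notch4 was at 14.1, 10.1 and 18.96 CPM in WT_FI against 20.9, 16.7 and 16.7 CPM in KO_FI (0.33, SE 0.25, edgeR adjusted p = 1.00). Pax7 stayed within its spread, at 918 ± 123 CPM in WT_FI against 994 ± 79.1 CPM in KO_FI (SD, n = 3 each).

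Among the ligands, Jag2 was at 18.9, 16.4 and 20.6 CPM in WT_FI against 34.7, 23.7 and 21.2 CPM in KO_FI. The groups did not overlap, but KO_FI index 2 was close to the highest WT_FI library, and the same-index differences were 0.87, 0.53 and 0.044 (0.51, SE 0.21, unadjusted p = 0.0536 and adjusted p = 1.00 from edgeR). The Jag2 share of ligand FPKM was likewise 12.6% to 16.2% in KO_FI and 1.08% to 8.13% in WT_FI, a description over 2 tables with no test. Jag1 was at 175, 159 and 268 CPM in WT_FI against 195, 98.9 and 113 CPM in KO_FI (−0.56, SE 0.32, edgeR adjusted p = 1.00). Dll1 was at 61.3, 96.0 and 54.8 CPM in WT_FI against 64.8, 38.1 and 37.2 CPM in KO_FI (−0.60, SE 0.31, edgeR adjusted p = 1.00). For Jag1 and Dll1 the lower KO_FI values lay in indices 1 and 2, and the index 0 libraries, which stand apart in their share of whole values, were close to each other. Without both index 0 libraries, the estimates were −1.0 for Jag1, −0.99 for Dll1, 0.55 for Notch3 and 0.29 for Jag2, with 0 members and 1 gene called.

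Dll4 varied within both groups, at 10.7, 3.65 and 18.5 CPM in WT_FI against 17.4, 4.49 and 5.48 CPM in KO_FI (−0.25, SE 0.74, edgeR adjusted p = 1.00). The 95% interval of the difference ran from −2.05 to 1.54. The sum of 19 endothelial markers was lowest and highest in the same WT_FI libraries, at 814, 398 and 1362 CPM, and was at 1169, 774 and 821 CPM in KO_FI. The part of endothelial RNA in the spread of Dll4 was not tested.

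The same question was put to proliferating cells by comparing KO_Cul with WT_Cul. Of the 8 members, 7 passed the filter on low counts and none passed the test. By edgeR 0% of all 13963 genes tested passed, and 112 genes, none of them a member, had an unadjusted p under 0.05. Chance alone gives far more at this threshold, so the test was cautious and its lack of calls does not show equal levels. DESeq2 called 3 genes, limma none, and neither called a member. Estimates were above 0 for Notch3, Notch4 and Jag2 and below 0 for Notch1, Notch2, Jag1 and Dll1, though that of Notch1 was near 0 and turned sign with upper-quartile scaling (0.028). Leaving out 1 of the 4 libraries turned the sign of Notch1, Jag1, Jag2 and Dll1 too. The groups did not overlap for 3 of the 7, Notch2, Notch3 and Notch4, against 23% of all genes tested. The median log2 fold change was −0.033 over the 7 members and 0.0197 over all genes.

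Notch2, the leading receptor of this state, was at 183 and 175 CPM in WT_Cul against 144 and 131 CPM in KO_Cul (179 ± 5.67 and 138 ± 9.62, SD, n = 2 each). Both KO_Cul libraries lay below both WT_Cul libraries, and the log2 difference of −0.38 (SE 0.19) did not pass (unadjusted p = 0.102, adjusted p = 1.00, edgeR). Notch3 was at 5.66 and 5.60 CPM in WT_Cul against 14.7 and 6.18 CPM in KO_Cul, a difference carried by KO_Cul index 0 (0.89, SE 0.48, edgeR adjusted p = 1.00; 1.37 and 0.14 within the indices). Leaving out one library in turn gave 0.12 to 1.38, the lowest without KO_Cul index 0. Pericyte and smooth muscle markers had 6 of 6 tested estimates above 0 there (median 0.61) and fibroblast markers 9 of 10 (median 1.67), none called, and their part was not tested. Notch4 was near 1 CPM throughout, at 0.859 and 0.645 CPM in WT_Cul against 1.10 and 1.17 CPM in KO_Cul (0.60, SE 0.49). Notch1 was nearly level, at 43.2 and 33.8 CPM in WT_Cul against 42.4 and 32.9 CPM in KO_Cul (−0.033, SE 0.25).

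Jag2, the leading ligand in this table, was at 85.2 and 75.5 CPM in WT_Cul against 110 and 80.5 CPM in KO_Cul (0.25, SE 0.24). Jag1 was at 34.2 and 26.6 CPM in WT_Cul against 30.5 and 23.7 CPM in KO_Cul (−0.17, SE 0.25). Dll1 was at 48.7 and 22.7 CPM in WT_Cul against 43.7 and 24.0 CPM in KO_Cul, so that the index 0 libraries of both genotypes were alike and the index 1 libraries too (−0.078, SE 0.48). Adjusted p was 1.00 in edgeR for each of these genes. Dll4 had 2 and 9 fragments in WT_Cul and 3 and 11 in KO_Cul, too few to pass the filter.

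KO_Diff against WT_Diff addressed it in cells in differentiation medium. Again 7 of the 8 members passed the filter and none passed the test. By edgeR 0% of all 14482 genes tested passed, and 27 genes, Notch3 among them, had an unadjusted p under 0.05. That is far fewer than this threshold gives by chance, so the test was cautious and its lack of calls does not show equal levels. DESeq2 and limma called 0 genes each. All 7 estimates were above 0, with a median of 0.56, while the median over all genes was −0.00617. Those of Notch2, Jag1, Jag2 and Dll1 changed sign when 1 of the 4 libraries was left out, and those of Notch1, Notch3 and Notch4 did not. The groups did not overlap for 2 of the 7, Notch1 and Notch3, against 13.2% of all genes tested.

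Notch3 was at 52.7 and 34.1 CPM in WT_Diff against 107 and 108 CPM in KO_Diff (43.4 ± 13.2 and 108 ± 1.06, SD, n = 2 each). The KO_Diff libraries were close to each other and above both WT_Diff libraries, and the log2 difference was 1.31 (SE 0.39, 95% interval 0.30 to 2.31, unadjusted p = 0.0204 and adjusted p = 1.00 from edgeR). Within the indices it was 1.02 and 1.67. Notch1 was at 30.8 and 29.5 CPM in WT_Diff against 42.6 and 47.6 CPM in KO_Diff (30.2 ± 0.927 and 45.1 ± 3.53, SD, n = 2 each), a log2 difference of 0.58 (SE 0.36, edgeR adjusted p = 1.00). Notch2 was at 136 and 66.3 CPM in WT_Diff against 134 and 101 CPM in KO_Diff (0.21, edgeR adjusted p = 1.00). Notch4 lay under 1 CPM in all 4 libraries, at 0.535 and 0.367 CPM in WT_Diff against 0.663 and 0.472 CPM in KO_Diff (0.33, edgeR adjusted p = 1.00).

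Of the other cell lists, fibroblast, endothelial and pericyte and smooth muscle markers mostly had estimates above 0 in KO_Diff, with none called. Schwann cell markers had 3 of 6 tested above 0 and macrophage and leukocyte markers 2 of 4. The 1 lymphocyte marker tested was below 0. The 12 fibroblast markers summed to 431 and 391 CPM in WT_Diff and to 716 and 718 CPM in KO_Diff, groups that did not overlap. Of these 12, 9 had estimates above 0 (median 0.44). Of the endothelial markers 11 of 15 tested were above 0 (median 1.31). Their sums overlapped, at 30.4 and 56.2 CPM in WT_Diff against 35.3 and 41.3 CPM in KO_Diff. In WT_Diff index 1, 6 of the 19 markers had no fragments. Of the pericyte and smooth muscle markers 7 of 7 tested were above 0 (median 1.08), with sums of 170 and 1613 CPM in WT_Diff and 308 and 3273 CPM in KO_Diff, and in the index 1 libraries most of the sum was Acta2, smooth muscle actin.

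Among the 9 genes of that list, Pdgfrb was at 0.956 and 3.83 CPM in WT_Diff against 4.64 and 15.5 CPM in KO_Diff, Abcc9 at 0.205 and 4.78 CPM against 0.302 and 25.0 CPM, and Cspg4 at 92.3 and 139 CPM against 121 and 160 CPM. Mcam was at 1.73 and 8.52 CPM in WT_Diff against 3.64 and 13.2 CPM in KO_Diff, Tagln at 11.7 and 47.8 CPM against 28.4 and 86.5 CPM, Myh11 at 0.239 and 0.396 CPM against 0.976 and 0.682 CPM, and Acta2 at 62.8 and 1409 CPM against 148 and 2972 CPM. All 7 of these were higher in KO_Diff within each index. Rgs5 was at 0 in both WT_Diff libraries and at 0.0116 and 0.0262 CPM in KO_Diff, and Kcnj8 was at 0.285 and 0 CPM in WT_Diff against 0.0465 and 0.0131 CPM in KO_Diff. The muscle differentiation genes had 15 of 15 tested estimates above 0 in KO_Diff (median 0.88), none called. Which cells held these RNAs, and their part in the difference of Notch3, was not tested.

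The ligands in the Diff table separated by index more than by genotype. Jag2 was at 25.7 and 60.5 CPM in WT_Diff against 41.5 and 88.6 CPM in KO_Diff, and Dll1 at 31.0 and 77.7 CPM against 46.6 and 113 CPM. Both were higher in index 1 and, within each index, higher in KO_Diff. The log2 differences were 0.59 (SE 0.62) for Jag2 and 0.56 (SE 0.67) for Dll1, each with an adjusted p of 1.00 in edgeR, and within the indices they were 0.69 and 0.55 for Jag2 and 0.59 and 0.54 for Dll1. Jag1 ran opposite to them between indices, at 15.6 and 4.77 CPM in WT_Diff against 16.4 and 7.43 CPM in KO_Diff (0.22, edgeR adjusted p = 1.00). The 15 muscle differentiation genes summed to 1445 and 17746 CPM in WT_Diff and to 2042 and 35130 CPM in KO_Diff, so the index 1 libraries were the ones with high muscle genes. Dll4 had 5 and 2 fragments in WT_Diff and 9 and 12 in KO_Diff and was not tested.

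**Figure D4:**
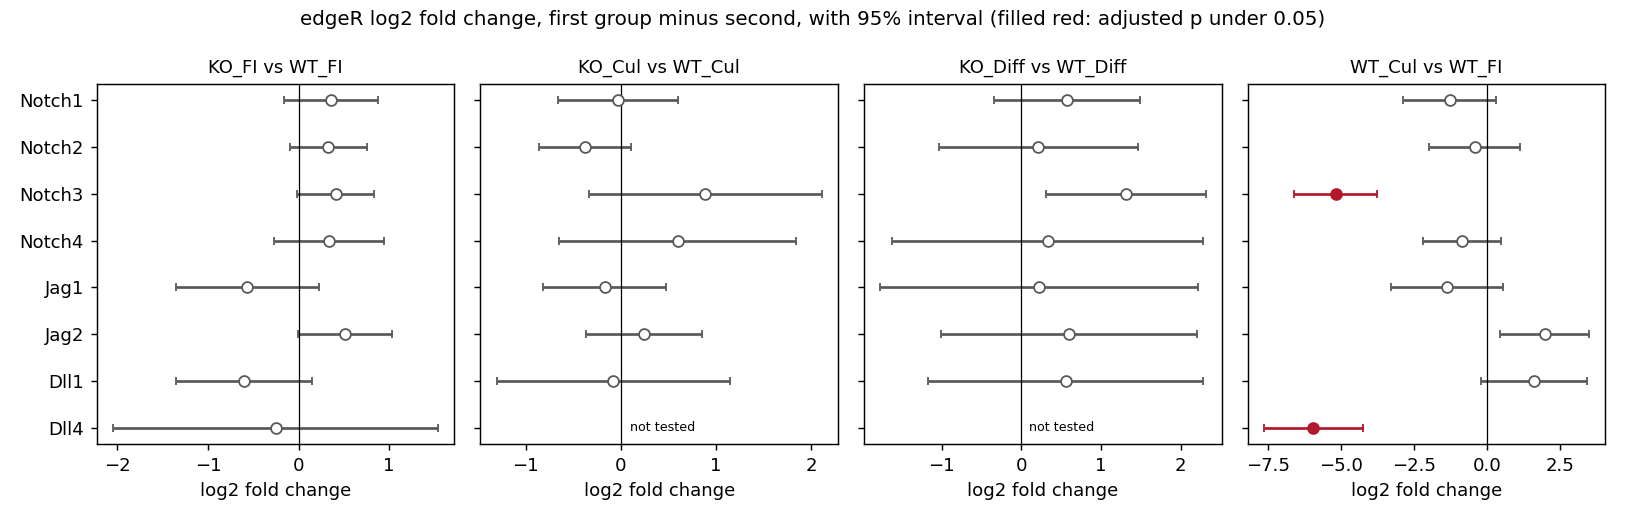
Log2 fold change of each of the 8 genes with its 95% interval from edgeR, with 1 panel per comparison and red filled points for an adjusted p under 0.05. Notch3 (−5.18) and Dll4 (−5.95) in WT_Cul against WT_FI are the only red points, all intervals in the KO comparisons but that of Notch3 in Diff (0.30 to 2.31) include 0, and Dll4 was not tested in Cul and Diff.

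The KO effect was also compared between states over the 14 libraries of the FI, Cul and Diff tables and 16698 genes. None of the 8 members passed for Cul minus FI, Diff minus FI or Diff minus Cul, as for 0% of all genes in each contrast (edgeR, all adjusted p = 1.00). The lowest unadjusted p among the members in this fit was 0.116, for Notch3 in Diff minus FI. For Notch3, the KO effect was 0.91 (SE 0.54) log2 units larger in Diff than in FI, 0.53 (SE 0.54) larger in Cul than in FI and 0.39 (SE 0.59) larger in Diff than in Cul. For Dll1, whose estimate was below 0 in FI and above 0 in Diff, the difference was 1.19 (SE 0.75). With a block by table index added, the lowest unadjusted p among the members was 0.00981, for Dll1 in Diff minus FI (adjusted p = 0.772, edgeR). Notch1 in Diff minus Cul came next (unadjusted p = 0.0165, adjusted p = 0.604, edgeR). No member passed with this block either, and the labels name no such pairs. A difference between states was therefore not detectable after adjustment for any member at this number of libraries.

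Of 59 other genes of the Notch pathway, 58 were in the tables. None was called in any KO comparison, of 54 tested in FI, 53 in Cul and 53 in Diff, and their median log2 fold changes were 0.0278, 0.0566 and 0.158. In WT_Cul against WT_FI, 2 were called higher and 15 lower of 54 tested, with a median of −0.29. This is 31.5% of those tested, beside the 28.6% of all genes.

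Targets of the pathway lay lower in WT_Cul, with 4 of 5 tested called. Nrarp, which feeds back on the Notch complex, was at 117 and 148 CPM in WT_FI against 2.12 and 2.40 CPM in WT_Cul (−5.87, edgeR adjusted p = 0.00962). Hey2 fell by 5.43, Heyl by 3.08 and Hes1 by 2.04 on the log2 scale (edgeR adjusted p = 0.0103, 0.0125 and 0.0252), and Hey1 did not pass (−1.72, edgeR adjusted p = 0.0588). The Hes and Hey proteins are transcriptional repressors. Markers of vessel cells and of fibroblasts fell in the same comparison, and their part in the fall of these targets or of other pathway genes was not tested.

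Genes that act on the ligands included 3 called lower of 6. Neurl1b, an E3 ligase for ligands, went from 57.0 to 7.61 CPM on average (−2.90, edgeR adjusted p = 0.0119), Epn2, an endocytic adaptor, from 306 to 69.2 CPM (−2.14, edgeR adjusted p = 0.0202) and Mib2 from 45.1 to 14.8 CPM (−1.60, edgeR adjusted p = 0.0393). Mib1, the main ligase of Delta ligands, varied widely within both groups, at 37.3 and 91.4 CPM in WT_FI against 9.08 and 116 CPM in WT_Cul (−0.036, SE 1.14, edgeR adjusted p = 0.984). Among other proteins that bind Notch receptors, Dlk1 fell (21.5 to 1.35 CPM, −3.98, edgeR adjusted p = 0.0191) and Dlk2 rose (0.222 to 4.88 CPM, 4.42, edgeR adjusted p = 0.0232). Cntn1 was at 1.63 CPM in WT_FI and had no fragments in WT_Cul, at least 15.2-fold lower against a floor of 3 fragments per library (edgeR adjusted p = 0.0166).

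Of 10 proteases and gamma-secretase subunits, Aph1c (−3.40, edgeR adjusted p = 0.0191) and Aph1b (−1.85, edgeR adjusted p = 0.0458) were called lower. Of 10 negative regulators, the Deltex genes Dtx1 (−5.09, edgeR adjusted p = 0.0352), Dtx3 (−3.12, edgeR adjusted p = 0.0118) and Dtx4 (−3.24, edgeR adjusted p = 0.0106) were called lower, and Numb, which opposes Notch at the membrane, was not (−1.10, edgeR adjusted p = 0.382). In the nuclear complex, the acetyltransferase Kat2b fell from 81.5 to 12.0 CPM (−2.76, edgeR adjusted p = 0.0175) and its paralog Kat2a rose from 43.5 to 113 CPM (1.37, edgeR adjusted p = 0.0349). Rbpj, the DNA-binding partner, was at 45.9 and 86.9 CPM on average and did not pass (0.92, edgeR adjusted p = 0.0957). None of 6 corepressors or 5 glycosylation genes was called, among them Lfng, a Fringe that modifies receptors (0.72, edgeR adjusted p = 0.441).

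In the KO comparisons these genes are given without a call. In KO_FI against WT_FI, Heyl had a log2 difference of 0.45 and Hes1, Hey1, Nrarp and Hey2 of −0.48, −0.24, −0.60 and −1.05, so the targets did not share one sign. The smallest p among pathway genes was that of Dtx1, at 2.67 CPM in WT_FI against 6.89 CPM in KO_FI (1.36, unadjusted p = 0.000814, adjusted p = 0.478, edgeR). In Cul, Mib1 was at 54.9 CPM in WT_Cul against 28.4 CPM in KO_Cul (−0.95, edgeR adjusted p = 1.00). In Diff, Hes1 and Hey1 had log2 differences of 0.20 and 0.60 (edgeR adjusted p = 1.00 each), and Heyl, at 12.3 and 44.9 CPM, of 1.87 (SE 0.88, edgeR adjusted p = 1.00).

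Across all 18 libraries, log2 CPM centred on each table's mean was compared between genes as a description, since libraries share depth, culture state and cell makeup. Centring removes differences between tables, so a difference between states remains only in the table of WT states. Notch3 ran from 36.2 to 2111 CPM there, but from 1966 to 3356 CPM in FI, 5.60 to 14.7 CPM in Cul and 34.1 to 108 CPM in Diff. Its correlations therefore rest mostly on WT_FI against WT_Cul of that table. Among 10436 genes with a mean of at least 5 CPM, the most alike to Notch3 were Prickle1 (Pearson r = 0.975) and Fam20a (0.970), and to Notch1 Olfml2a (0.940) and Kalrn (0.939). Notch2 was most like Gpatch8 (0.966) and Arid1b (0.956), and Notch4 most like Stk10 (0.903) and Serpine2 (0.901). Of the ligands, Jag1 was most like Crim1 (0.947) and Specc1 (0.942), Jag2 most like Kifc3 (0.932) and Itga5 (0.929), and Dll1 most like Cdk5r1 (0.946) and Traf4 (0.945). Dll4 did not pass the filter in every table and has no such genes. Among the members themselves, Notch1 was most like Notch3 (0.82) and Notch4 (0.79), Jag2 and Dll1 went together (0.60), and Notch2 and Dll1 ran opposite (−0.69).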

How the data were processed

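PolyA RNA was measured in 18 libraries. Per the file headers, the authors deposited 4 Cuffdiff tables, which hold estimated counts of raw fragments and FPKM scaled within a table. The submitters' processing notes list TopHat, Bowtie, Cuffdiff, SICER and build mm9. The sources used here give no versions. Columns carry a condition and an index, not the labels' replicate number, and the letter for the proliferating state was matched because the other states were accounted for. No column of per-sample values was left unused. A gene not marked OK for every library of a table was dropped from it, which took 22 genes from FI, 12 from Cul, 19 from Diff and 27 from the WT states, Rbpj in Cul and Diff among them. No 2 libraries of a group agreed within sampling noise (chi-square of 26.7 or more for each degree of freedom).

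Fragments were rounded to whole numbers and fitted table by table with edgeR 4.0.16 (TMM, filterByExpr, robust quasi-likelihood F test) in R 4.3.3, and p-values were adjusted over all tested genes by Benjamini-Hochberg, with 0.05 as the threshold. limma 3.58.1 and DESeq2 1.42.0 served as alternatives. The fits were tested on simulated data. CPM used TMM-scaled library sizes, and correlations used log2 CPM with a prior count of 2. Whether counting used strand is not stated.

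The members, 18 gene lists (159 symbols, 3 of them not matched) and tests were chosen with earlier results of these data known. Named genes are the members, up to 4 genes per pathway list and comparison with the smallest p, Hes1, Hey1, Heyl, Nrarp, Rbpj, Lfng, Mib1, Numb, Pax7 and Sirt1, and the 2 genes most alike to each member. Predicted genes were passed over. Beside them, marker genes that define a cell type were named after their values were seen. In the FI table, deviations of same-index libraries correlated at 0.866, 0.683 and 0.584. Libraries of different index were not compared in this way, and the labels name no pairs. The libraries that stand apart within the FI table in their share of whole values have the same index in both groups. These correlations therefore cannot tell a pairing of every index from a difference shared by that index alone. The block by table index changed no call of a member there.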

Additional observations from a re-analysis of the deposited data

How the results depend on the processing

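In WT_Cul against WT_FI, Notch3 and Dll4 were called in every setting tried, Notch3 at −5.70 to −4.85 and Dll4 at −6.15 to −5.75 when 1 library was left out in turn. Dll4 was −1.52 on log2(FPKM + 1) and −3.98 on log2(FPKM + 0.1), scales that understate low genes. With the replicate block by table index, 6 members passed there, Notch1 (−1.52), Jag1 (−1.70), Jag2 (1.92) and Dll1 (1.64) in addition. In Diff the replicate block called 147 genes and 1 member, Notch3 (1.34, edgeR adjusted p = 0.00141), and in Cul it called 3 genes and 0 members. These pairs share only a number (2 pairs a table, correlations of deviations 0.732 for Cul, 0.787 for Diff and 0.387 for the WT states). The block changed no other call of a member. DESeq2 called 114 genes in FI and 3 in Cul, none a member. Without both index 0 libraries of the FI table, a choice made after seeing the data, 1 gene was called. Notch1 in Cul turned to 0.028 with upper-quartile factors and 0.0039 with the spread pooled over the joined tables.

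When 1 library was left out in turn, 2063 to 8050 genes and 2 to 7 members were called in WT_Cul against WT_FI, and estimates ran from −2.42 to −0.69 for Notch1, −1.48 to 0.13 for Notch2, −1.38 to −0.51 for Notch4, −2.82 to −0.72 for Jag1, 1.27 to 2.48 for Jag2 and 0.73 to 2.56 for Dll1. In FI, Notch1 ran from 0.20 to 0.49, Notch2 from 0.23 to 0.51, Notch3 from 0.27 to 0.52, Notch4 from 0.13 to 0.58, Jag1 from −0.92 to −0.30, Jag2 from 0.27 to 0.65, Dll1 from −0.90 to −0.32 and Dll4 from −1.13 to 0.35. In Cul, Notch3 ran from 0.12 to 1.38, Notch4 from 0.40 to 0.81, Notch1 from −0.24 to 0.15, Jag1 from −0.38 to 0.017, Jag2 from −0.014 to 0.45 and Dll1 from −0.59 to 0.57. In Diff, Notch4 ran from 0.061 to 0.64, Notch2 from −0.22 to 0.84, Jag1 from −0.46 to 1.33, Jag2 from −0.015 to 1.33 and Dll1 from −0.18 to 1.36. The cause of these moves was not tested. Where a group kept 1 library, it was assumed to vary like the other group. With 2 or 3 libraries a group, the number of libraries limits the precision. Dll4 had 2 to 12 fragments a library in Cul and Diff, the deepest tables. Of the estimates of members under the other settings, 72 of 72 in FI, 54 of 56 in Cul, 55 of 56 in Diff and 50 of 56 in WT_Cul against WT_FI kept their direction and side of the threshold.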
